A study of Mus musculus with 9 samples.

Results

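The enzymes described here are 9 proteins that carry fatty acids into mitochondria and break them down, or that start oxidation in the peroxisome. They are the carnitine palmitoyltransferases Cpt1a and Cpt2, the acyl-CoA dehydrogenases Acadvl, Acadl, Acadm and Acadsb, the trifunctional protein subunits Hadha and Hadhb, and the peroxisomal lyase Hacl1. All 9 were matched by gene symbol in a table of 56953 genes, and all 9 passed the filter that left 14215 genes for testing. They were chosen with their levels in these same libraries already known, selected on their differences between the virus groups. Their values, and the calls made on them, are therefore given as a description, with no p-value printed, and nothing is supported with them.

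The libraries came from primary cardiac fibroblasts, the matrix-making cells of the heart, grown in dishes from wild-type adult male C57BL/6N mice. Cultures of all groups were infected with an adenovirus at 1e+06 pfu per ml and collected 72 h later. The Ad-JP2 group carried junctophilin-2, a protein that holds the plasma membrane and the endoplasmic reticulum together, the Ad-shJP2 group a short hairpin against it, and the Ad-GFP control group green fluorescent protein. Each group had 3 libraries of polyadenylated RNA, and the labels do not say whether these were separate cultures, so the spread between them may be technical.

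In mitochondrial beta-oxidation a fatty acid is activated to an acyl-CoA, passed through the carnitine shuttle and shortened in cycles of dehydrogenation, hydration, another dehydrogenation and thiolysis. Different acyl-CoA dehydrogenases start the cycle for very long, long, medium and short or branched chains, and the trifunctional protein runs the later steps on long chains. The heart as an organ draws much of its energy from this pathway, chiefly in cardiomyocytes. Fibroblasts hold the same enzymes, and inherited defects of several of them in humans cause fasting intolerance and cardiomyopathy.

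Levels are given in TPM, an abundance scaled for gene length and for the total of the library. Jph2, the gene the viruses address, had 737, 691 and 637 TPM in Ad-JP2 libraries, 116.5, 123 and 119 TPM in libraries labelled Ad-shJP2, and 132, 127.5 and 128 TPM in Ad-GFP libraries. It was higher in Ad-JP2 than in Ad-GFP (log2 difference 2.40, SE 0.05, limma adjusted p = 3.1e-08), whereas the difference of libraries labelled Ad-shJP2 from Ad-GFP was -0.11 on the log2 scale (SE 0.05, limma adjusted p = 0.072) and did not pass. Directions in libraries labelled Ad-shJP2 are therefore those of the label, without a called fall of the Jph2 message. Estimated depth was 36.9 to 41.5 M reads in Ad-JP2, 21.2 to 33.4 M in libraries labelled Ad-shJP2 and 40.7 to 45.7 M in Ad-GFP. The summed TPM of 10 fibroblast markers was 11173 to 11936 in Ad-JP2, 7510 to 7744 in libraries labelled Ad-shJP2 and 11382 to 11487 in Ad-GFP, so the labelled cell type was present in every library. The sum of 10 macrophage and leukocyte markers was 2239 to 2280 TPM in Ad-JP2, 2834 to 2880 TPM in libraries labelled Ad-shJP2 and 2444 to 2467 TPM in Ad-GFP. Most of that sum was Lyz2, at means of 1556 TPM in Ad-JP2, 2023 TPM in libraries labelled Ad-shJP2 and 1730 TPM in Ad-GFP. Of the 10 markers 2 were called higher and 2 lower in Ad-JP2, beside 13.4% and 1.64% of all genes. In libraries labelled Ad-shJP2, 6 were called higher and 3 lower, beside 21.8% and 37.7%, so they did not move as one. Mrc1 (1.22) and Ptprc (0.94) were higher in Ad-JP2. Mrc1 (-1.62), Itgam (-0.72) and Ptprc (-0.36) were lower in libraries labelled Ad-shJP2. After correction for GC content and length, described further on, Ptprc was at 0.21 there with no call. Of the 10 markers 2 were then higher and 1 lower in Ad-JP2, beside 8.83% and 4.88% of all genes. In libraries labelled Ad-shJP2, 3 were then higher and 3 lower, beside 20.7% and 36.4%. For 10 cardiomyocyte markers, 6 of which were below 1 TPM in every library, the sums were 36.8 to 42.1 TPM in Ad-JP2, 27.9 to 31.2 TPM in libraries labelled Ad-shJP2 and 42.9 to 43.6 TPM in Ad-GFP. For 8 endothelial markers they were 37.6 to 42.3 TPM in Ad-JP2, 31.1 to 42.5 TPM in libraries labelled Ad-shJP2 and 39.4 to 41.1 TPM in Ad-GFP, with 2 markers below 1 TPM in every library. For 6 pericyte and smooth muscle markers they were 11.3 to 12.5 TPM in Ad-JP2, 6.94 to 7.18 TPM in libraries labelled Ad-shJP2 and 10.6 to 11.4 TPM in Ad-GFP, with 4 below 1 TPM in every library. Of 9 adipocyte markers 8 were below 1 TPM in every library, 2 of them at 0 throughout. The macrophage and leukocyte sums and the cardiomyocyte sums differed between all groups without overlap. Most of the cardiomyocyte sum was Tnnt2 and Nppa, the 2 of these markers that were tested. Neither was called in Ad-JP2 over Ad-GFP (-0.14 and -0.16). Both were called lower in libraries labelled Ad-shJP2 (-0.46 and -0.62), beside 37.7% of all genes. The fibroblast sums and the pericyte and smooth muscle sums were lower in libraries labelled Ad-shJP2, while Ad-JP2 and Ad-GFP overlapped. Most of the fibroblast sum was Vim, at means of 7311 TPM in Ad-JP2, 5022 TPM in libraries labelled Ad-shJP2 and 7263 TPM in Ad-GFP. Of the 10 fibroblast markers 3 were called higher and 0 lower in Ad-JP2, beside 13.4% and 1.64% of all genes. In libraries labelled Ad-shJP2, 1 was higher (Thy1, 0.26) and 9 lower, beside 21.8% and 37.7%. After correction the counts were 1 and 1 (8.83% and 4.88% of all genes), and 0 and 9 (20.7% and 36.4%). The endothelial and adipocyte sums overlapped in all groups. The part of the marker sums in the results on the enzymes was not tested. In bulk RNA, fewer cells of a type and less RNA per cell cannot be told apart.

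The starts of 4 of the enzymes lie back to back with that of another gene. The 4 windows concerned are shown first because the pairs behave differently in these data, as described with the values further on. Each covers 250 bases before to 50 bases after a RefSeq gene start on the mouse build GRCm38.p6, read 5′ to 3′ on the gene's own strand, with capitals marking the bases that the window shares with the window of the gene on the opposite strand. The Acadsb window is chr7:131410351-131410650 on the plus strand and shares 222 bases with Ikzf5. The Hacl1 window is chr14:31640916-31641215 on the minus strand and shares 198 bases with Btd. The Hadha window is chr5:30154931-30155230 on the minus strand, and the Hadhb window is chr5:30155003-30155302 on the plus strand. These last windows share 228 bases with each other.
Acadsb: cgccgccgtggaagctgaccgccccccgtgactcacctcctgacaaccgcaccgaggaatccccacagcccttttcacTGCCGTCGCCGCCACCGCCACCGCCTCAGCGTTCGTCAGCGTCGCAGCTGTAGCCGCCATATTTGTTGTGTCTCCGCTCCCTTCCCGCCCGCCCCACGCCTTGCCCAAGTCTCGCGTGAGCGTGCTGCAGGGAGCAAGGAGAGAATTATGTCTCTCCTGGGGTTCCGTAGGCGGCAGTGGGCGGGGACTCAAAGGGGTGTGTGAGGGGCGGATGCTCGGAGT
Hacl1: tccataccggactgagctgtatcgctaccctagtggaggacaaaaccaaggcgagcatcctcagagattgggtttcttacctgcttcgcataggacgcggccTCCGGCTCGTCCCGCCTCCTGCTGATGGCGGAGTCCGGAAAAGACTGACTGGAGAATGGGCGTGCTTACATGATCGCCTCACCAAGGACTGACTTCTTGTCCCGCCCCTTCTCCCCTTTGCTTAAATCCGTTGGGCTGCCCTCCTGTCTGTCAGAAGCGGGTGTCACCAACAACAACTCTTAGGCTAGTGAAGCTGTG
Hadha: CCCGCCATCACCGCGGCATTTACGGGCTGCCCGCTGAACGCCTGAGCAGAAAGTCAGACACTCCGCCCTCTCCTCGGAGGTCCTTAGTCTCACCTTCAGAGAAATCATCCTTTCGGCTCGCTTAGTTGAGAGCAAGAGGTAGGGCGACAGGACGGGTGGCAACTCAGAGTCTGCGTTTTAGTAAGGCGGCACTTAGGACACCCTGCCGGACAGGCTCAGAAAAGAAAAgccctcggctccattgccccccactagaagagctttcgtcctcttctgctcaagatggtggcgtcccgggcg
Hadhb: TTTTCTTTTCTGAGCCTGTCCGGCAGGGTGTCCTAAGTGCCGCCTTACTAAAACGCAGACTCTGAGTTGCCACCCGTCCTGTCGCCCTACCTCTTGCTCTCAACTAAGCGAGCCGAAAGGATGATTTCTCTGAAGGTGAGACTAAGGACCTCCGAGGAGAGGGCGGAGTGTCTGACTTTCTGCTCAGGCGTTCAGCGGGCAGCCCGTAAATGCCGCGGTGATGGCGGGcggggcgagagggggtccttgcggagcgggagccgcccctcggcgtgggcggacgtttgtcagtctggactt

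All 9 enzymes had a window in the RefSeq table. Motifs were searched on both strands. The GC box GGGCGG was found in 7 of the 9 windows and in 35.7% of the 32851 windows of all genes, the Hadha and Hadhb windows counting separately although they overlap. The nuclear receptor half-site AGGTCA was found in the Acadm, Acadvl and Cpt1a windows and in 16.3% of all windows. GCATGCGC, the core of the NRF1 motif, was found in the Acadm window and in 2.71% of all windows. CCAAT was found in 2 windows (37.4% of all), GGAAGT, an ETS core, in 2 (23.8% of all) and TATAAA in 0 (13.6% of all). Motifs were counted independently, so matches of different motifs may overlap, and a match or its absence says nothing about binding in these cells.

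Within a library, Hadha was the most abundant enzyme message in every group. It averaged 119 ± 4.49 TPM in Ad-JP2, 105.5 ± 4.44 TPM in libraries labelled Ad-shJP2 and 114 ± 1.07 TPM in Ad-GFP (SD, n = 3 each). Acadvl came next in every group, followed by Acadl and Cpt1a. In Ad-GFP the order ran on through Acadm, Cpt2, Acadsb, Hadhb and Hacl1, and only the neighbours Acadsb and Hadhb overlapped in their library values. Acadsb was the enzyme whose place changed most. It had rank 5 of 9 in Ad-JP2, where its range ran into that of Cpt1a, rank 9 in libraries labelled Ad-shJP2, where it overlapped Hacl1, and rank 7 in Ad-GFP. The neighbours Acadl and Cpt1a overlapped in Ad-JP2, and Cpt2 and Hadhb overlapped in libraries labelled Ad-shJP2.

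**Figure D1:**
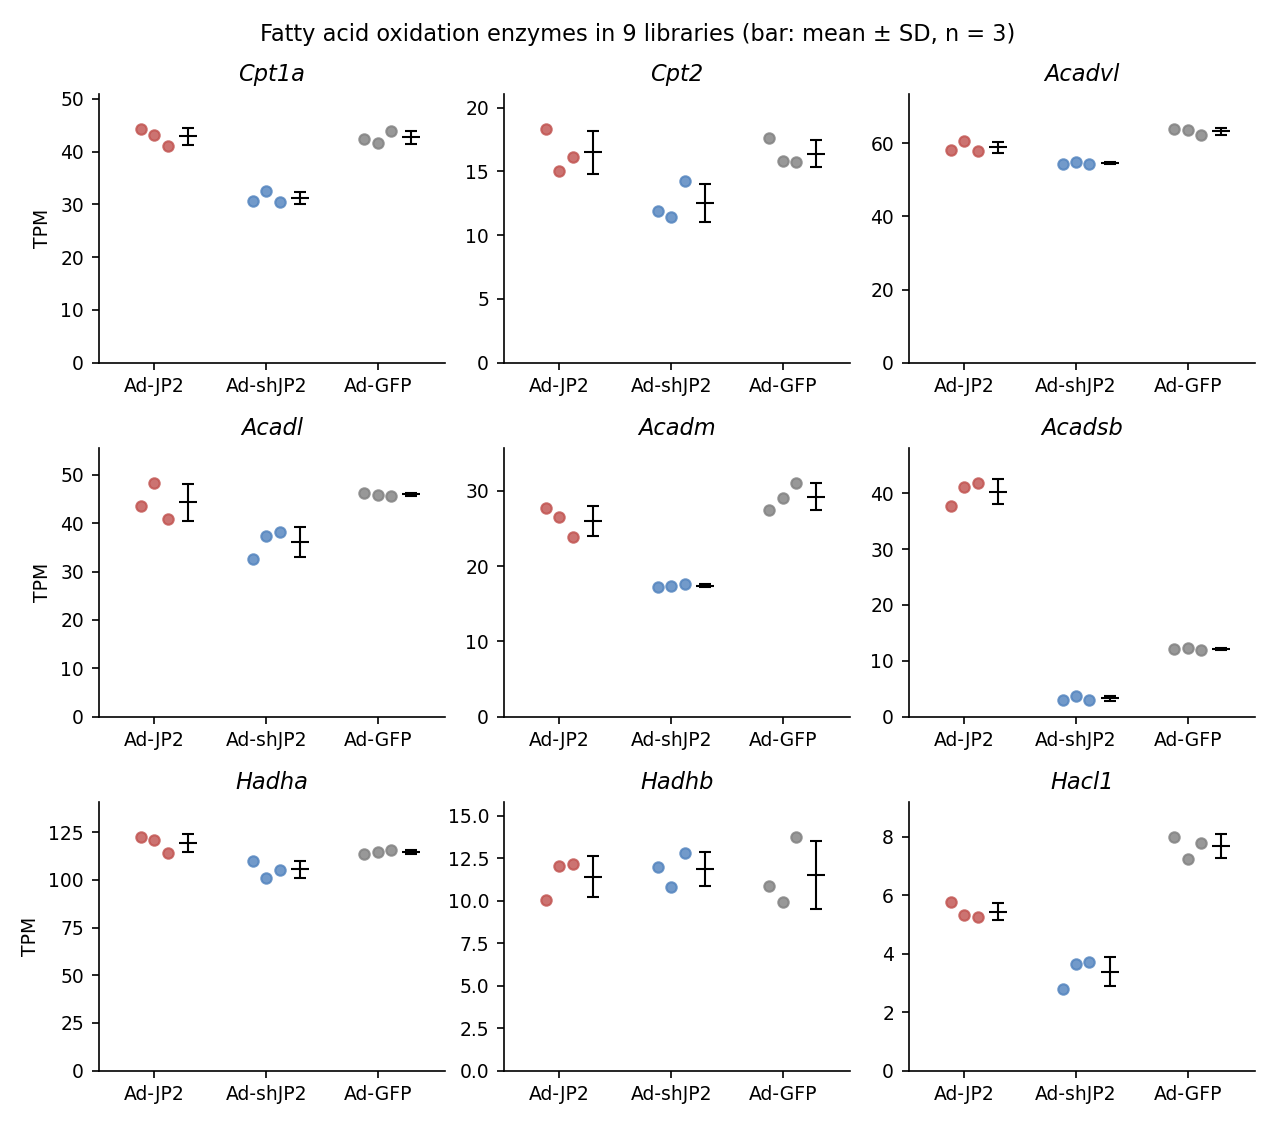
TPM (vertical axes, from 0) of the 9 enzymes in each of the 9 libraries; each point is 1 library and the bar beside it is the mean ± SD of 3 libraries. Acadsb is highest in Ad-JP2 at 37.7 to 41.9 TPM and lowest in libraries labelled Ad-shJP2 at 3.00 to 3.79 TPM, whereas the Hadhb points of the 3 groups overlap.

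Cpt1a, which makes acylcarnitines at the outer mitochondrial membrane and is regarded as the gate of the pathway, had 44.3, 43.2 and 41.1 TPM in Ad-JP2 libraries, 30.7, 32.6 and 30.4 TPM in libraries labelled Ad-shJP2, and 42.4, 41.6 and 43.9 TPM in Ad-GFP libraries. The Ad-JP2 and Ad-GFP ranges overlapped, and all libraries labelled Ad-shJP2 lay below both. On the log2(TPM + 1) scale, on which changes of low genes are understated, its difference was 0.01 ± 0.04 (SE) for Ad-JP2 over Ad-GFP, -0.44 ± 0.04 for Ad-shJP2 over Ad-GFP and 0.45 ± 0.04 for Ad-JP2 over Ad-shJP2. Cpt2, which turns acylcarnitines back into acyl-CoA at the inner membrane, had 18.4, 15.0 and 16.2 TPM in Ad-JP2 libraries, 11.9, 11.4 and 14.3 TPM in libraries labelled Ad-shJP2, and 17.6, 15.8 and 15.7 TPM in Ad-GFP libraries. Its libraries scattered more than those of Cpt1a, but the group labelled Ad-shJP2 again lay wholly below the other groups. The Cpt2 difference was 0.01 ± 0.10 for Ad-JP2 over Ad-GFP, -0.37 ± 0.10 for Ad-shJP2 over Ad-GFP and 0.37 ± 0.10 for Ad-JP2 over Ad-shJP2.

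The 3 dehydrogenases of straight chains were all lower in libraries labelled Ad-shJP2 than in the other groups, by unequal amounts. Acadvl, which acts on very long chains at the inner membrane, had 58.3, 60.7 and 57.9 TPM in Ad-JP2 libraries, 54.3, 55.0 and 54.4 TPM in libraries labelled Ad-shJP2, and 64.0, 63.6 and 62.2 TPM in Ad-GFP libraries. No groups overlapped, with Ad-JP2 between the others. The Acadvl difference was -0.10 ± 0.03 for Ad-JP2 over Ad-GFP and -0.21 ± 0.03 for Ad-shJP2 over Ad-GFP. Acadl, the long-chain dehydrogenase, had 43.6, 48.4 and 40.9 TPM in Ad-JP2 libraries, 32.6, 37.4 and 38.3 TPM in libraries labelled Ad-shJP2, and 46.4, 45.8 and 45.7 TPM in Ad-GFP libraries. Ad-JP2 libraries lay on both sides of the Ad-GFP range, and libraries labelled Ad-shJP2 lay below both groups, with a difference from Ad-GFP of -0.34 ± 0.07. Acadm, the medium-chain dehydrogenase, had 27.7, 26.5 and 23.8 TPM in Ad-JP2 libraries, 17.2, 17.4 and 17.6 TPM in libraries labelled Ad-shJP2, and 27.5, 29.04 and 31.1 TPM in Ad-GFP libraries. Among these 3 it differed most between libraries labelled Ad-shJP2 and Ad-GFP, by -0.71 ± 0.06, whereas Ad-JP2 overlapped Ad-GFP.

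Acadsb, the short and branched chain dehydrogenase, which in isoleucine breakdown acts on 2-methylbutyryl-CoA, was the one enzyme that lay on opposite sides of Ad-GFP in the other groups with no overlap of library values. It had 37.7, 41.2 and 41.9 TPM in Ad-JP2 libraries, 3.01, 3.79 and 3.00 TPM in libraries labelled Ad-shJP2, and 12.2, 12.3 and 11.9 TPM in Ad-GFP libraries. The groups were far apart relative to the spread within them. Its mean was 3.32 times the Ad-GFP mean in Ad-JP2 (log2 difference 1.65 ± 0.08) and 0.269 times in libraries labelled Ad-shJP2 (-1.63 ± 0.08). Between Ad-JP2 and libraries labelled Ad-shJP2 the means differed 12.3-fold (3.28 ± 0.08). About 1380 to 1610 reads stood behind the value in Ad-JP2 libraries, 60 to 130 in libraries labelled Ad-shJP2 and 470 to 520 in Ad-GFP libraries, estimates from the approximate depths. Of the summed TPM of Acadvl, Acadl, Acadm and Acadsb, Acadsb made up 23.8 ± 1.51% in Ad-JP2, 2.93 ± 0.361% in libraries labelled Ad-shJP2 and 8.05 ± 0.136% in Ad-GFP (SD, n = 3 each). The 8 enzymes without Acadsb summed to 325 ± 11.5 TPM in Ad-JP2, 273 ± 3.88 TPM in libraries labelled Ad-shJP2 and 331 ± 4.23 TPM in Ad-GFP. With Acadsb the sums were 365 ± 10.4 TPM in Ad-JP2, 276 ± 3.57 TPM in libraries labelled Ad-shJP2 and 343 ± 4.04 TPM in Ad-GFP. Without Acadsb the Ad-JP2 libraries (312 to 332 TPM) overlapped those of Ad-GFP (328 to 336 TPM). With Acadsb the Ad-JP2 libraries (353 to 373 TPM) lay above those of Ad-GFP (340 to 348 TPM).

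The trifunctional protein joins Hadha, its alpha subunit with hydratase and dehydrogenase activity, and Hadhb, its beta subunit with thiolase activity, in equal numbers. Hadha had 123, 121 and 114 TPM in Ad-JP2 libraries, 110.0, 101 and 105 TPM in libraries labelled Ad-shJP2, and 113, 114.5 and 115.5 TPM in Ad-GFP libraries. The group labelled Ad-shJP2 was just below the others (-0.12 ± 0.04 against Ad-GFP), and the Ad-JP2 and Ad-GFP ranges overlapped. The call behind that small difference was lost without Ad-shJP2 replicate 2 or 3 or any 1 of the Ad-GFP libraries, at -0.09 to -0.12. After correction for GC content and length, described further on, Hadha was at -0.19 in that comparison and at 0.29 in place of 0.18 for Ad-JP2 over Ad-shJP2. Hadhb had 10.03, 12.03 and 12.2 TPM in Ad-JP2 libraries, 11.98, 10.8 and 12.8 TPM in libraries labelled Ad-shJP2, and 10.9, 9.93 and 13.8 TPM in Ad-GFP libraries. All 3 groups overlapped, and the Hadhb differences were -0.01 ± 0.12 for Ad-JP2 and 0.05 ± 0.12 for Ad-shJP2 over Ad-GFP. The ratio of Hadha to Hadhb TPM was 10.6 ± 1.49 in Ad-JP2, 8.93 ± 0.598 in libraries labelled Ad-shJP2 and 10.1 ± 1.59 in Ad-GFP (SD, n = 3 each), so Hadha was the more abundant subunit message in every library.

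Hacl1, a peroxisomal lyase that removes 1 carbon from 2-hydroxy acids and from methyl-branched chains such as phytanic acid, was lowest in abundance of the 9 in Ad-JP2 and Ad-GFP. It had 5.76, 5.31 and 5.25 TPM in Ad-JP2 libraries, 2.80, 3.66 and 3.70 TPM in libraries labelled Ad-shJP2, and 8.002, 7.22 and 7.79 TPM in Ad-GFP libraries. No groups overlapped, and both other groups lay below Ad-GFP, by -0.43 ± 0.10 in Ad-JP2 and by -0.99 ± 0.10 in libraries labelled Ad-shJP2. About 140 to 170 reads stood behind the value in Ad-JP2, 50 to 100 in libraries labelled Ad-shJP2 and 220 to 270 in Ad-GFP. The Ad-JP2 difference lost its call when either of Ad-JP2 replicates 2 and 3 or either of Ad-GFP replicates 1 and 3 was left out, with values of -0.40 to -0.42.

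A call here is a limma adjusted p under 0.05 over all genes tested. For Ad-JP2 over Ad-GFP, Acadsb was called higher and Hacl1 lower, 1 of 9 each, beside 13.4% of all genes called higher and 1.64% called lower. Library values did not overlap for 3 of 9, beside 32.2% of all genes. For Ad-shJP2 over Ad-GFP, 0 of the 9 were called higher and 8 lower, all but Hadhb, beside 21.8% of all genes called higher and 37.7% called lower. Values did not overlap for 8 of 9, beside 65.3%. For Ad-JP2 over Ad-shJP2, 8 of the 9 were called higher and 0 lower, beside 40.3% of all genes called higher and 24.1% called lower, and values did not overlap for 8 of 9, beside 67.1%. The median difference of the 9 was -0.01, -0.37 and 0.37 in these 3 comparisons, against 0.01, -0.11 and 0.10 over all genes. With median-of-ratios scaling or quantile normalization 5 of the 9 were called higher for Ad-JP2 over Ad-shJP2, beside 4735 and 4026 of the 14215 genes, and Acadvl stood at -0.02 there with the first of these. Since the enzymes were picked from these contrasts, nothing is read from the counts, and the comparisons share libraries.

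**Figure D2:**
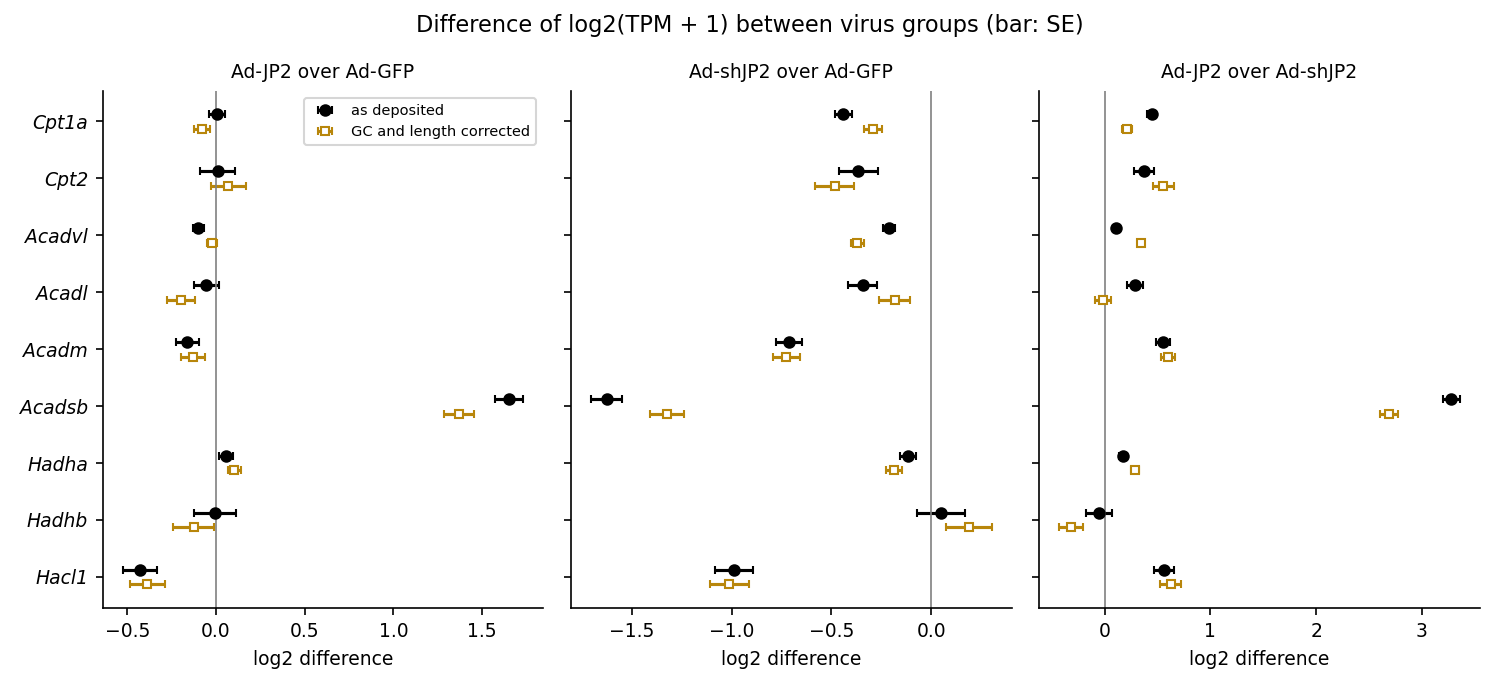
Difference of log2(TPM + 1) between groups (horizontal axes) for each enzyme, as deposited (black points) and after correction for GC content and length (open squares); bars are the SE of the fit. Acadsb stands far from the other enzymes at 1.65, -1.63 and 3.28, and the corrected Acadl value for Ad-JP2 over Ad-shJP2 lies at -0.01 in place of 0.29.

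Across all genes the differences went with the GC content of the message. Pearson's r between GC content and log2 difference was -0.43 for Ad-JP2 over Ad-GFP, 0.33 for Ad-shJP2 over Ad-GFP and -0.44 for Ad-JP2 over Ad-shJP2, over 14025 genes, which are not independent replicates. The enzymes ranged in GC content from 42.7% for Acadsb to 53.7% for Acadvl, around an all-gene median of 50.4%. With each library corrected for its dependence on GC content and gene length, Acadsb kept most of its size, at 1.37 for Ad-JP2 over Ad-GFP, -1.32 for Ad-shJP2 over Ad-GFP and 2.69 for Ad-JP2 over Ad-shJP2. Hacl1 was at -0.39, -1.01 and 0.63, and Acadm at -0.13, -0.73 and 0.60. Acadl, at 45.1% GC, was at -0.18 for Ad-shJP2 over Ad-GFP, no longer a call, and at -0.01 in place of 0.29 for Ad-JP2 over Ad-shJP2. Cpt1a for Ad-JP2 over Ad-shJP2 was at 0.21 in place of 0.45. Acadvl moved the other way, to -0.37 for Ad-shJP2 over Ad-GFP and to 0.35 for Ad-JP2 over Ad-shJP2, in place of -0.21 and 0.11. Hadhb for Ad-JP2 over Ad-shJP2 was at -0.32 in place of -0.05 and was then called lower. After correction 8.83% of genes were called higher and 4.88% lower for Ad-JP2 over Ad-GFP, 20.7% and 36.4% for Ad-shJP2 over Ad-GFP, and 39.9% and 23.2% for Ad-JP2 over Ad-shJP2. Whether the dependence on GC content arose in the cells or in library preparation was not tested.

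**Figure D3:**
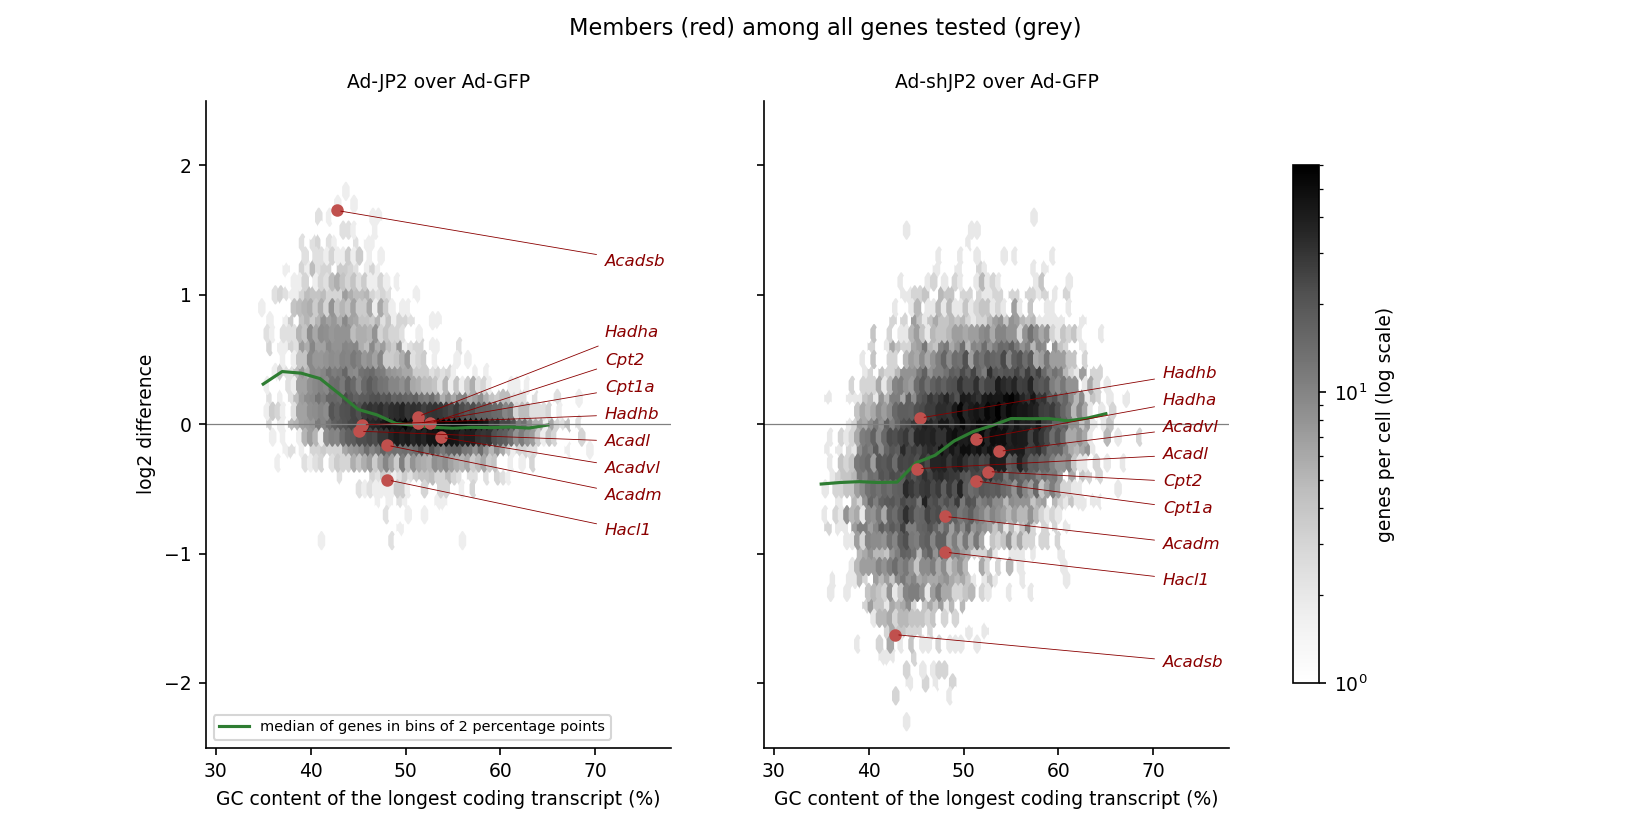
Log2 difference (vertical axes) against GC content of the longest coding transcript in percent (horizontal axes); grey cells count genes on a log scale, the green line is the median of genes in GC bins, and red points are the 9 enzymes. Acadsb, at 42.7% GC, lies far above the line at 1.65 in Ad-JP2 over Ad-GFP and far below it at -1.63 in Ad-shJP2 over Ad-GFP.

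The other genes of the pathway were taken from lists drawn up from textbook roles. Earlier results of these data were known by then, so the lists cannot be taken as independent of them. Of 49 listed genes of fatty acid uptake, the carnitine shuttle, mitochondrial beta-oxidation and peroxisomal oxidation 44 could be tested. In Ad-JP2 over Ad-GFP, 5 were called higher and 2 lower, beside 13.4% and 1.64% of all genes. In Ad-shJP2 over Ad-GFP, 4 were called higher and 23 lower, beside 21.8% and 37.7%. With median-of-ratios scaling the counts were 8 and 15. In Ad-JP2 over Ad-shJP2, 18 were called higher and 5 lower, beside 40.3% and 24.1%. With quantile normalization the counts were 10 and 14. Shares of all genes with either scaling are not set beside these counts, so no change is read as particular to this list. The median difference of the 44 was -0.05 in Ad-JP2 over Ad-GFP, -0.20 in Ad-shJP2 over Ad-GFP and 0.10 in Ad-JP2 over Ad-shJP2. Over all genes it was 0.01, -0.11 and 0.10. After correction for GC content and length 1 was higher and 3 lower in Ad-JP2 over Ad-GFP, 6 higher and 24 lower in Ad-shJP2 over Ad-GFP, and 19 higher and 9 lower in Ad-JP2 over Ad-shJP2. In the same order, 8.83% and 4.88%, 20.7% and 36.4%, and 39.9% and 23.2% of all genes were then called higher and lower.

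Of 16 other genes of the mitochondrial cycle 1 was called higher and 10 lower in libraries labelled Ad-shJP2, beside 21.8% and 37.7% of all genes. In Ad-JP2 0 were higher and 2 lower, beside 13.4% and 1.64%. After correction 0 were higher and 12 lower in libraries labelled Ad-shJP2, beside 20.7% and 36.4%. Hadh, the dehydrogenase of the third step for shorter chains, had 39.0, 37.1 and 37.1 TPM in Ad-JP2 libraries, 24.8, 24.8 and 27.1 TPM in libraries labelled Ad-shJP2, and 39.7, 39.1 and 41.5 TPM in Ad-GFP libraries. It fell in libraries labelled Ad-shJP2 (log2 difference -0.63, limma adjusted p = 4.0e-06, and -0.73 after correction), where every library lay below those of the other groups. Etfa, a subunit of the flavoprotein that takes electrons from all acyl-CoA dehydrogenases, averaged 53.8 TPM in Ad-JP2, 30.7 TPM in libraries labelled Ad-shJP2 and 48.2 TPM in Ad-GFP, a fall of -0.64 in libraries labelled Ad-shJP2 (limma adjusted p = 0.00087). Decr1, which prepares unsaturated chains for the cycle, fell by 0.47 on the log2 scale there, but its corrected value was -0.13 and was not called. The 1 gene called higher was Etfb, the partner of Etfa, at 0.09, but at -0.19 and called lower after correction, named after its value was seen. The 2 genes lower in Ad-JP2 were Acat1, a thiolase of ketone and isoleucine metabolism (-0.22, limma adjusted p = 0.046, and -0.36 after correction), and Hsd17b10, a dehydrogenase of branched chains (-0.12, and 0.02 after correction). After correction 0 were called higher in Ad-JP2 and 2 lower, beside 8.83% and 4.88% of all genes. These 2 were Acat1 and Decr1, the latter at -0.39 in place of -0.11.

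Of 4 other genes of the carnitine shuttle 0 were called in Ad-JP2, and 1 was higher and 1 lower in libraries labelled Ad-shJP2. Of all genes, 13.4% were called higher and 1.64% lower in Ad-JP2, and 21.8% and 37.7% in libraries labelled Ad-shJP2. Slc25a20, the carrier that exchanges acylcarnitine and carnitine across the inner membrane, averaged 31.2 TPM in Ad-JP2, 27.8 TPM in libraries labelled Ad-shJP2 and 31.9 TPM in Ad-GFP, a fall of -0.19 in libraries labelled Ad-shJP2 (limma adjusted p = 0.010). Cpt1c, a brain-enriched relative of Cpt1a, rose there by 0.25 (adjusted p = 0.00078, and by 0.14 after correction). Cpt1b, the muscle form, was at 0.166 to 0.516 TPM in Ad-JP2, 0 to 1.08 TPM in libraries labelled Ad-shJP2 and 0 to 0.291 TPM in Ad-GFP, too low to be tested. Of 10 genes of uptake and activation 3 were called higher and 0 lower in Ad-JP2, beside 13.4% and 1.64% of all genes. In libraries labelled Ad-shJP2, 1 was higher and 3 lower, beside 21.8% and 37.7%. After correction 1 was higher and 1 lower in Ad-JP2, beside 8.83% and 4.88% of all genes. In libraries labelled Ad-shJP2, 4 were then higher and 2 lower, beside 20.7% and 36.4%. The list median turned to 0.15 there, in place of -0.04. The fatty acid translocase Cd36 and the acyl-CoA synthetases Acsl3 and Acsl4 were the 3 higher in Ad-JP2 and the 3 lower in libraries labelled Ad-shJP2, and the transporter Slc27a1 (0.34, named after its value was seen) was the 1 higher there. Cd36 was at 0.38 in Ad-JP2 over Ad-GFP (limma adjusted p = 0.0029) but at -0.02 after correction, and at -0.66 in Ad-shJP2 over Ad-GFP and -0.28 after correction. Acsl3 was at 0.65 in Ad-JP2 over Ad-GFP, and at 0.35 with no call after correction. Acsl4 was at 0.90 in Ad-JP2 over Ad-GFP and 0.33 after correction, but its fall of -0.45 in libraries labelled Ad-shJP2 turned to 0.21 after correction, called higher.

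Of 14 peroxisomal genes tested, 2 were called higher and 0 lower in Ad-JP2, beside 13.4% and 1.64% of all genes, and 1 was higher and 9 lower in libraries labelled Ad-shJP2, beside 21.8% and 37.7%. After correction 0 were called in Ad-JP2, beside 8.83% of all genes called higher and 4.88% lower. In libraries labelled Ad-shJP2, 1 was then higher and 8 lower, beside 20.7% and 36.4%. Abcd3, a transporter of long and branched acyl-CoA into the peroxisome, had 30.0, 31.9 and 29.9 TPM in Ad-JP2 libraries, 7.18, 7.88 and 7.92 TPM in libraries labelled Ad-shJP2, and 24.6, 23.2 and 25.4 TPM in Ad-GFP libraries. The difference of Abcd3 from Ad-GFP was 0.32 in Ad-JP2 (limma adjusted p = 0.0047, and 0.04 after correction) and -1.55 in libraries labelled Ad-shJP2 (adjusted p = 5.1e-08, and -1.19 after correction). Crot, which attaches carnitine to shortened peroxisomal chains, was at 0.32 in Ad-JP2 (0.03 after correction) and at -1.06 in libraries labelled Ad-shJP2 (adjusted p = 1.1e-06, and -0.70 after correction). Aldh3a2, a fatty aldehyde dehydrogenase needed to use phytol, fell by 0.66 on the log2 scale in libraries labelled Ad-shJP2. Amacr, the racemase of branched acyl-CoA, was the 1 gene called higher (0.57, named after its value was seen). Of 15 peroxisome biogenesis genes 3 were called higher and 6 lower in libraries labelled Ad-shJP2, beside 21.8% and 37.7% of all genes. After correction 0 of the 15 were higher and 5 lower there, beside 20.7% and 36.4%. Pex3, a receptor for membrane protein insertion, was at -0.70 there and at -0.42 after correction.

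Acadsb stands in branched-chain amino acid catabolism as much as in fatty acid oxidation, and the genes of that route were listed apart. Of 14 tested, 3 were called higher and 0 lower in Ad-JP2, beside 13.4% and 1.64% of all genes, and 1 was higher and 9 lower in libraries labelled Ad-shJP2, beside 21.8% and 37.7%. After correction 2 were higher and 0 lower in Ad-JP2, beside 8.83% and 4.88% of all genes. In libraries labelled Ad-shJP2, 2 were then higher and 10 lower, beside 20.7% and 36.4%. Dld, the dihydrolipoamide dehydrogenase subunit shared by the oxoacid dehydrogenase complexes, had 31.1, 37.4 and 35.1 TPM in Ad-JP2 libraries, 5.96, 4.92 and 5.52 TPM in libraries labelled Ad-shJP2, and 20.5, 18.6 and 18.7 TPM in Ad-GFP libraries. Its differences from Ad-GFP were 0.81 in Ad-JP2 (limma adjusted p = 0.00022) and -1.65 in libraries labelled Ad-shJP2 (adjusted p = 3.7e-07), and 0.43 and -1.26 after correction. Dbt, the transacylase core of the branched-chain complex, averaged 4.80 TPM in Ad-JP2, 0.881 TPM in libraries labelled Ad-shJP2 and 1.27 TPM in Ad-GFP, with 1.36 in Ad-JP2 over Ad-GFP (0.96 after correction). Its fall of -0.27 in libraries labelled Ad-shJP2 was not kept after correction (0.20, not called). Hibch was the third gene called higher in Ad-JP2 (0.42), with 0.13 and no call after correction. Hibch and Aldh6a1, both in valine breakdown, fell by 1.06 and 1.52 on the log2 scale in libraries labelled Ad-shJP2, and by 0.78 and 1.07 after correction. Bcat1, the cytosolic aminotransferase that opens the route, was the 1 gene called higher there (0.55, named after its value was seen). Propionyl-CoA, to which isoleucine, valine and odd chains lead, is handled by a route of which 4 genes were tested. Of these 0 were called higher and 3 lower in libraries labelled Ad-shJP2, beside 21.8% and 37.7% of all genes. Mmut, the B12-dependent mutase, was at -1.36 there (-0.84 after correction). In Ad-JP2 Mmut was called higher at 0.79, with 0.36 and no call after correction.

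**Figure D4:**
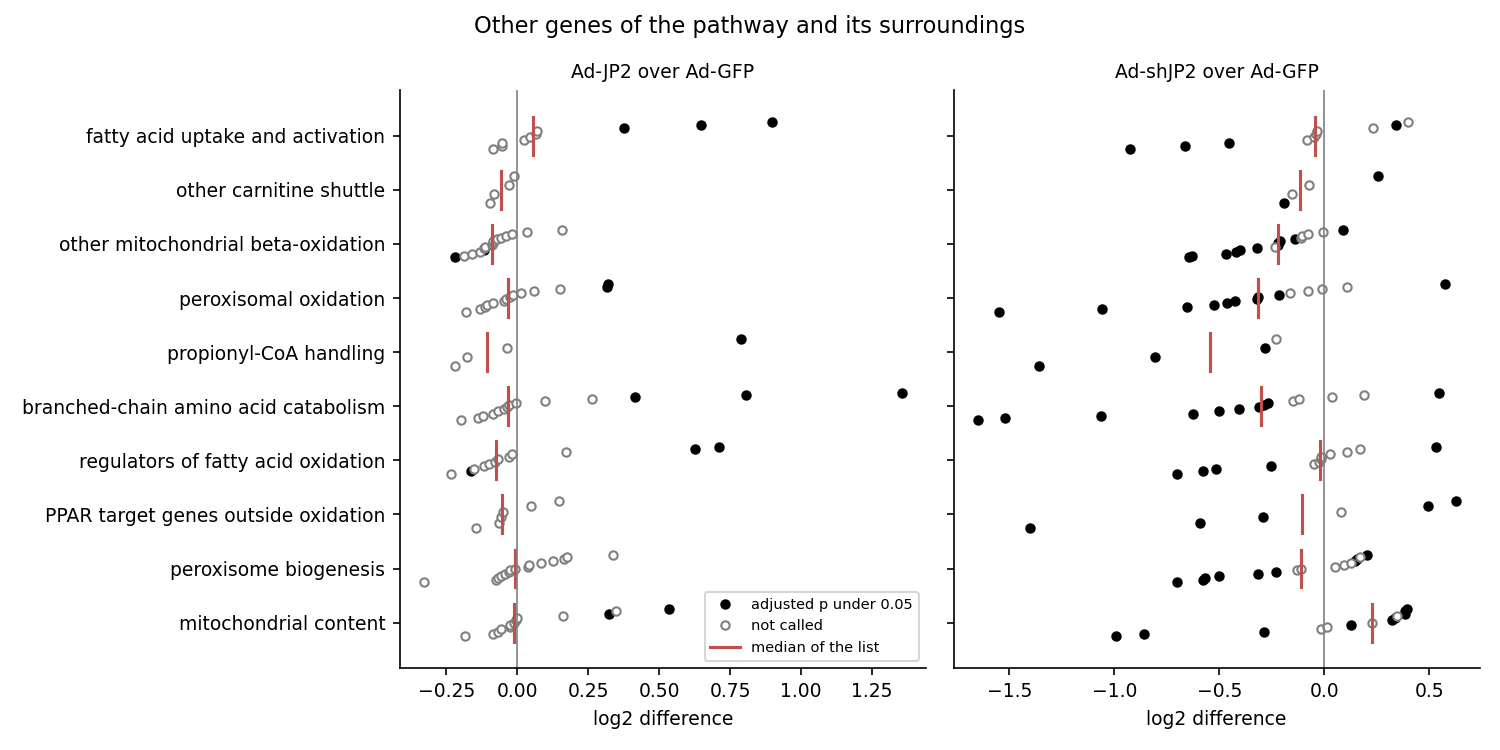
Log2 difference (horizontal axes) of each tested gene in the lists around the 9 enzymes for Ad-JP2 over Ad-GFP and Ad-shJP2 over Ad-GFP; filled points have an adjusted p under 0.05 and red bars are list medians. Most filled points of the mitochondrial, peroxisomal and branched-chain lists lie left of 0 in Ad-shJP2 over Ad-GFP, whereas the median of the mitochondrial content list lies at 0.23.

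Among 12 tested regulators 2 were called higher and 1 lower in Ad-JP2, beside 13.4% and 1.64% of all genes. In libraries labelled Ad-shJP2, 1 was higher and 4 lower, beside 21.8% and 37.7%. After correction 0 were higher and 1 lower in Ad-JP2, beside 8.83% and 4.88% of all genes. In libraries labelled Ad-shJP2, 3 were then higher and 5 lower, beside 20.7% and 36.4%. Ppara, a nuclear receptor that drives many of these enzymes in liver and heart, was at 0.152 to 0.190 TPM in Ad-JP2, 0 to 0.113 TPM in libraries labelled Ad-shJP2 and 0.019 to 0.343 TPM in Ad-GFP. Its coactivator Ppargc1a was at 0 to 0.030 TPM in Ad-JP2 and listed at 0 in all libraries of the other groups, so neither could be tested. Esrra, an orphan nuclear receptor of mitochondrial genes, averaged 26.9 TPM in Ad-JP2, 44.2 TPM in libraries labelled Ad-shJP2 and 30.2 TPM in Ad-GFP. It rose in libraries labelled Ad-shJP2 (0.53, limma adjusted p = 8.3e-06, and 0.32 after correction), and was at -0.16 in Ad-JP2 (adjusted p = 0.040, and -0.07 and no call after correction). Prkaa1, a catalytic subunit of AMP-activated kinase, was at 0.63 in Ad-JP2 and -0.25 in libraries labelled Ad-shJP2, but at 0.10 and 0.37 after correction, so its direction in libraries labelled Ad-shJP2 turned. Acaca, which makes the malonyl-CoA that inhibits Cpt1a, fell by 0.70 on the log2 scale in libraries labelled Ad-shJP2 (adjusted p = 0.0025, and by 0.42 after correction). The desuccinylase gene Sirt5 (-0.58) was lower there too. Named after their values were seen, the nuclear receptor gene Ppard (-0.52) was the other fall there, and the deacetylase gene Sirt1 (0.71, and 0.35 and no call after correction) the other rise in Ad-JP2.

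Of 6 tested PPAR target genes outside oxidation 0 were called in Ad-JP2, and 2 were higher and 3 lower in libraries labelled Ad-shJP2. Of all genes, 13.4% were called higher and 1.64% lower in Ad-JP2, and 21.8% and 37.7% in libraries labelled Ad-shJP2. Angptl4, a secreted lipase inhibitor, averaged 15.2 TPM in Ad-JP2, 25.2 TPM in libraries labelled Ad-shJP2 and 16.0 TPM in Ad-GFP (0.63 in Ad-shJP2 over Ad-GFP, limma adjusted p = 3.9e-06). Acot1, an acyl-CoA thioesterase whose close paralogs may share its reads, was at -1.40 in the same comparison. The kinase gene Pdk4 (-0.59, and -0.35 and no call after correction) was lower too, and the lipid droplet gene Plin2 (0.50) and Acot2 (-0.29), named after their values were seen, were the other calls. Of 13 genes of mitochondrial content 6 were called higher and 3 lower in libraries labelled Ad-shJP2, beside 21.8% and 37.7% of all genes. The list median there was 0.23 against -0.11 over all genes (0.13 against -0.10 after correction). The fusion protein Mfn2 was at 0.39, and the chaperone Hspd1 (-0.99) and the fusion protein Opa1 (-0.86, and -0.38 after correction) were lower.

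For 7 of the enzymes, the gene of 95 in the other lists with the nearest pattern over the 9 libraries was found by the root mean square distance between centred log2(TPM + 1) profiles. The nearest were Acad11 for Cpt1a (distance 0.05), Pex2 for Cpt2 (0.11), Echs1 for Acadvl (0.04), Pccb for Acadl (0.04) and Hadh for Acadm (0.07). Hadh was also nearest to Hacl1 (0.18). Acadsb had no close match, its nearest being Dld at 0.42. Small distances can come from genes that vary little, so they rank likeness within this list only.

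The partners of the back-to-back pairs, chosen by their position after values were seen, had differing patterns. Ikzf5, a zinc finger factor whose start lies 123 bases from that of Acadsb, had 4.04, 3.81 and 5.59 TPM in Ad-JP2 libraries, 0.828, 0.677 and 1.09 TPM in libraries labelled Ad-shJP2, and 2.41, 2.61 and 2.46 TPM in Ad-GFP libraries. Its groups did not overlap and stood in the same order as those of Acadsb. The differences from Ad-GFP were 0.63 in Ad-JP2 (limma adjusted p = 0.012, and 0.23 and no call after correction) and -0.91 in libraries labelled Ad-shJP2 (adjusted p = 0.00035, and -0.47 after correction). Btd, the biotinidase gene with starts 92 and 99 bases from that of Hacl1, had 16.4, 15.3 and 13.8 TPM in Ad-JP2 libraries, 15.1, 15.1 and 17.1 TPM in libraries labelled Ad-shJP2, and 13.9, 15.6 and 15.2 TPM in Ad-GFP libraries. All 3 groups overlapped for Btd, with differences of 0.02 in Ad-JP2 (adjusted p = 0.91) and 0.07 in libraries labelled Ad-shJP2 (adjusted p = 0.44), whereas those of Hacl1 did not overlap. Hadha and Hadhb start 273 bases apart, on either side of the shared 228 bases shown above, with about 10 times more Hadha than Hadhb TPM in Ad-JP2 and Ad-GFP.

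**Figure D5:**
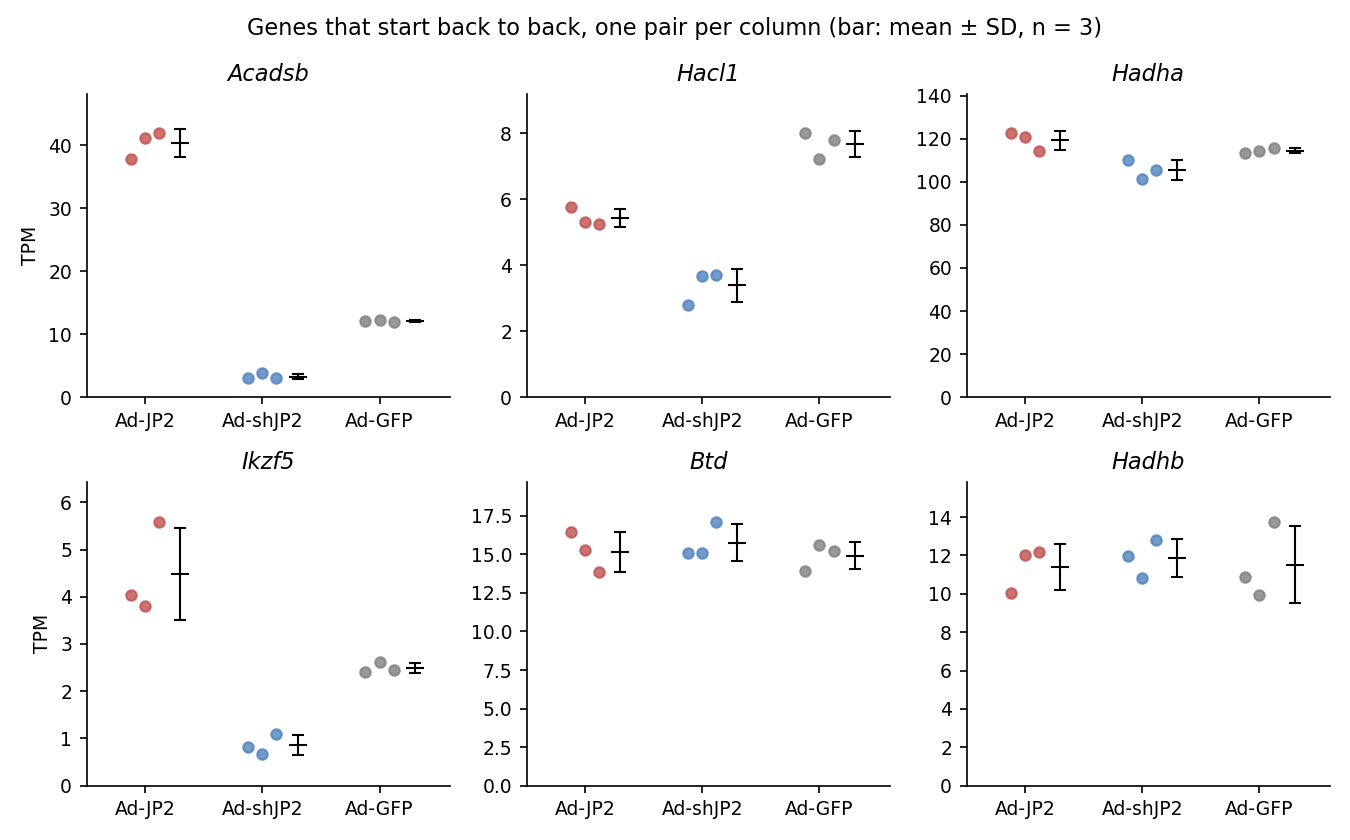
TPM (vertical axes, from 0) in each library for the pairs that start back to back, with Acadsb above Ikzf5, Hacl1 above Btd and Hadha above Hadhb; points are libraries and bars are the mean ± SD of 3. Acadsb and Ikzf5 stand in the same order of groups, whereas Btd ranges from 13.8 to 17.1 TPM with all groups overlapping.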

How the data were processed

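The data were 9 stranded libraries of polyA RNA from mouse cardiac fibroblasts in culture, in 3 virus groups of 3 taken from the sample titles. The deposited values are TPM per gene. Per the submitters' processing notes, DRAGEN, Salmon, DESeq2 and the build GRCm39 were used; which did what, and in which version, is not given in the sources used here. Of 56953 genes 29601 were at 0 in all libraries. TPM keeps no depth, so depth was estimated from the steps of low values multiplied by the deposited effective length. Within a tolerance of 0.1 read, 95.1% of low values were whole in Ad-GFP replicate 3 and 38.5% to 59.8% in the other libraries, so depths are approximate and no count test was run.

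Genes with at least 1 TPM in at least 3 libraries (14215) were fitted on log2(TPM + 1) with limma 3.58.1 in R 4.3.3, as 1 model of 3 group means with a mean-variance trend. Tests were two-sided and Benjamini-Hochberg adjusted over all genes tested, with a call at adjusted p under 0.05. The model was tested on simulated data. The GC correction removed from each library a spline (5 degrees of freedom each for GC content and length) and kept the library's median deviation; GC content came from the longest coding transcript of each gene. Its form was settled after a first version, which kept the mean deviation in place of the median, had been seen to shift the median of all genes. Pearson's r between the libraries within a group was 0.989 to 0.993. The members and the gene lists were chosen with earlier results of these data known. Named genes outside the 9 were, per list and comparison, up to 3 called genes with the largest difference and a mean of at least 1 TPM, together with Ppara, Ppargc1a, Slc25a20, Cd36, Cpt1b and Jph2 whatever their values; others are said to be named after their values were seen. Of 14 listed genes of mitochondrial content 13 were matched. Promoter windows are from RefSeq on GRCm38.p6, and no coordinates of GRCm39 were used. Some results that these rules select are not reported here; the genes stayed in every test and count.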

Additional observations from a re-analysis of the deposited data

How the results depend on the processing

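For Ad-JP2 over Ad-GFP, the 2 other fatty acid oxidation genes called lower became 1 with a pseudocount of 0.1, without a filter on low values or with a replicate block, 0 without the mean-variance trend, and 5 with quantile normalization. With median-of-ratios scaling 2 members were called lower in that comparison (399 of all genes, against 233 without it), and with quantile normalization 3 (748 of all genes), at a median of -0.10 over the members. With the GC and length correction 1 other gene was called higher there, and the median of the members was -0.078. With the correction and a replicate block 0 members were called lower and 0 other genes higher, at the same median of -0.078.

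For Ad-shJP2 over Ad-GFP, 15 other genes were called lower with either scaling, while 8 (median-of-ratios) and 7 (quantile) were called higher. The median of the members was -0.26 with the first and -0.28 with the second. For Ad-JP2 over Ad-shJP2, 5 members were called higher with either scaling, at medians of 0.25 (median-of-ratios) and 0.17 (quantile). With the correction, alone or with a replicate block, or with quantile normalization, 1 member was called lower. Other genes called lower in that comparison numbered 10 with median-of-ratios scaling, 14 with quantile normalization (10 higher), 9 with the correction and 8 with the correction and a replicate block. The scalings moved the median of all genes for Ad-shJP2 over Ad-GFP from -0.11 to -0.02 (median-of-ratios) and 0.02 (quantile). For Ad-JP2 over Ad-shJP2 it moved from 0.10 to -0.01 and -0.11. Shares of all genes called are not set beside the counts above, so no change in a count is read as particular to these genes.

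Of 216 values of single members under other settings, 3 reversed: Acadvl for Ad-JP2 over Ad-shJP2 was at -0.023 with median-of-ratios scaling, and Acadl at -0.014 with the correction, with and without a replicate block. Of these values 11 lost their call and 6 gained one. Of 243 values with 1 library left out, 9 lost their call (Hacl1 for Ad-JP2 over Ad-GFP and Hadha for Ad-shJP2 over Ad-GFP) and 0 reversed. With 1 library left out, members called lower for Ad-JP2 over Ad-GFP ranged from 0 to 1 and other genes called lower from 0 to 3. Other genes called higher for Ad-shJP2 over Ad-GFP ranged from 2 to 4, with 2 reached without Ad-GFP replicate 1 or 3, and the median of the members for Ad-JP2 over Ad-shJP2 ranged from 0.30 to 0.44, the lowest without Ad-JP2 replicate 1. The cause of these shifts was not tested. Libraries with the same replicate number did not deviate together (correlations of -0.11 to 0.11), so the numbers were not taken to pair them. Depth limits Acadsb and Hacl1 most in libraries labelled Ad-shJP2, with as few as 60 and 50 estimated reads.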
